A study of Rattus norvegicus with 15 samples.

Results

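Transcripts of the NRF2 pathway were followed in rat lung, in 15 libraries that fall into 3 groups of 5. The pathway's regulators and direct targets were represented by 8 listed genes (Nfe2l2, Keap1, Hmox1, Nqo1, Gclc, Gclm, Srxn1 and Osgin1). A gene was taken where its symbol equalled the name in the deposited table, which found 7 of the 8 among 22250 genes. Transcripts of Srxn1, the gene of sulfiredoxin, were not analysed here. All 7 passed the filter on low values (at least 1 FPKM in at least 5 libraries), as did 13457 genes in all.

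The SJY group (libraries 1, 3, 4, 5 and 6) consisted of wild-type rats given LPS through the trachea and Sang Ju Yin (SJY), a herbal decoction of Chinese medicine, into the stomach. The ALI group (acute lung injury, libraries 1 to 5) received the tracheal LPS alone, and the control group (libraries 4 to 8) is described as normal control rats, also wild type. LPS is bacterial lipopolysaccharide, used to provoke acute inflammation of the lung. Strain, age, sex, doses, sampling time and pooling are not given in the sources used here, and no group given SJY without LPS was analysed here. Nothing in the labels says that each library came from a separate animal, so the p-values measure the spread between these libraries.

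NRF2, the product of Nfe2l2, is a transcription factor that the adaptor KEAP1 holds in the cytoplasm and passes to a ubiquitin ligase for degradation. Oxidants and electrophiles modify KEAP1, NRF2 then accumulates, pairs with small MAF proteins and binds antioxidant response elements in the promoters of genes for glutathione synthesis, quinone reduction and haem breakdown. Because NRF2 is regulated mainly through protein stability, the transcript levels of Nfe2l2 and Keap1 are no measure of its activity. In lung the pathway is known for limiting oxidant injury in epithelium and macrophages.

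The shape of an antioxidant response element can be seen in the promoter of Gclm, which encodes the regulatory subunit of glutamate-cysteine ligase. The core TGACNNNGC was searched on both strands from 250 bases before to 50 bases after the gene start. RefSeq promoters of the GRCr8 build were used, where 7 of the 8 members had an entry. Hmox1 had no entry and was not searched. The stretch below, at chr2:213031937-213031997 on the plus strand, covers positions -198 to -138 from the gene start and has the match in capitals.
Gclm: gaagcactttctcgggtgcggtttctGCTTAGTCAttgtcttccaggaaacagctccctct
Read on the other strand, the capitals spell TGACTAAGC. A match was present in 12.1% of the 33469 promoters in the table. Nfe2l2 also had one, TGACGCCGC, beginning at position 38 after the gene start. The related form TGAGNNNGC, present in 17.2% of promoters, occurred among the members in Srxn1, with 3 matches. Keap1, Nqo1, Gclc and Osgin1 were searched and had no match of either form. A match describes letters in this window and was not tested for binding.

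Library depth could be read from the values themselves. FPKM values are fragments per kilobase of transcript per fixed number of mapped fragments, and for 99.991% of the genes the values in the 15 libraries were whole-number multiples of one step to within 0.005 fragments. Over the genes recovered, the smallest whole numbers gave 11534513 to 13479999 fragments per library and between 138 and 7426 fragments for a member in a library. The 2 genes not recovered were the mitochondrial Mt-co1 and the abundant Lyz2, which averaged 12016 to 14993 FPKM in the groups. The library totals are too low by their fragments, and need not be so equally. Counting error (1 SD) was at most 8.51% of a member's value; intervals from these counts cover counting error only. Alveolar type II cell markers, all 10 of them present, summed to 28643 to 35973 FPKM in SJY libraries, 10497 to 38955 FPKM in ALI libraries and 30167 to 43492 FPKM in control libraries. Library ALI 1 stood apart: mitochondrial transcripts made up 37.7% of its summed FPKM, while the remaining 4 ALI libraries had 8.31% to 14.1%; the share was 10.4% to 17.1% in SJY and 5.19% to 9.62% in control libraries. Differences from or to the ALI group are given with and without ALI 1 for the members and for the listed genes named.

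Across the 7 members, Hmox1 was higher and Osgin1, Gclm and Nqo1 were lower in ALI than in control lung. In ALI against control 1 member was called higher and 3 were called lower by limma (Benjamini-Hochberg adjusted p under 0.05 over all genes tested). Among all genes tested 8.02% were called higher and 9.56% lower. Without ALI 1, the same members were called, 1 higher and 3 lower, beside 9.11% and 7.89% of all genes. No member was called by limma in SJY against ALI (1, Osgin1, had an unadjusted p under 0.05), and 0.00743% of all genes were, which is 1 gene, Gzma; 1587 genes had an unadjusted p under 0.05. Against control, Hmox1 was called higher in SJY and Gclm and Osgin1 were called lower, beside 14.6% of all genes called higher and 18.1% lower. Without ALI 1 these same 3 were called, beside 17.8% and 26.5% of all genes. The 2 comparisons with control share its libraries, and the members' values are given side by side below. The median log2 difference of all genes tested was -0.12 in ALI against control and -0.11 in SJY against control. Median-of-ratios scaling brought these medians to 9.77e-05 and -0.0043, so differences smaller than this shift are relative to the scaling.

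**Figure D1:**
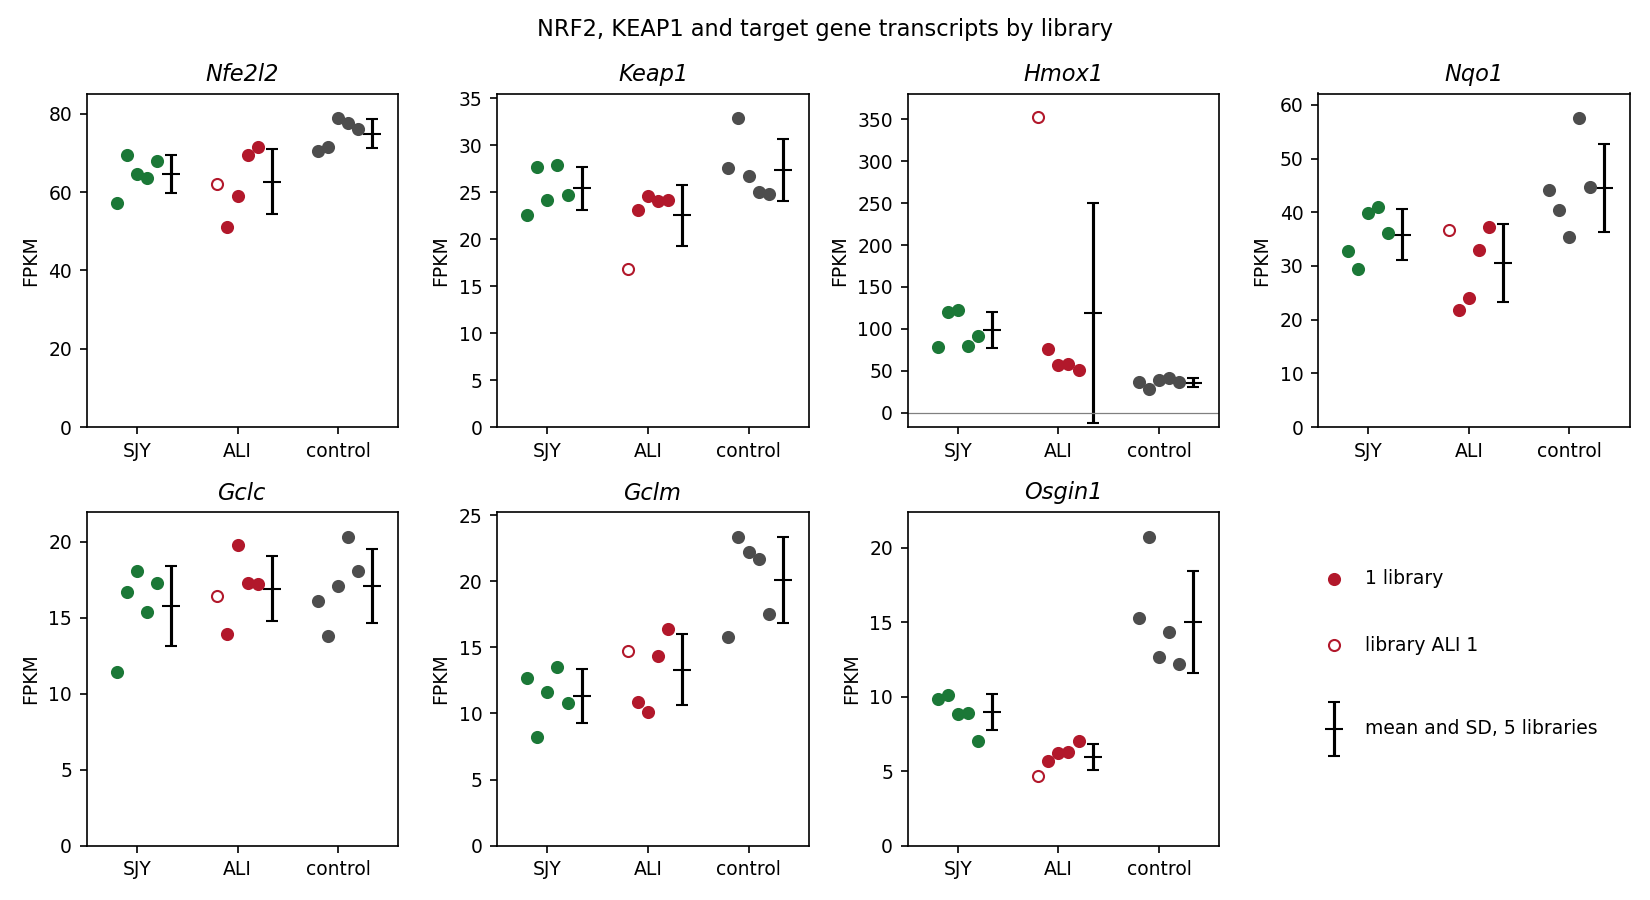
FPKM of the 7 members in each of the 15 libraries, by group (SJY, ALI, control); each dot is a library, the open dot is ALI 1, and bars give the mean and SD of 5 libraries. Hmox1 in ALI 1 stands at 353 FPKM, and Osgin1 is the member whose 3 groups do not overlap.

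Nfe2l2, the gene of NRF2 itself, was the most abundant member in control lung and was above 92.7% of the genes tested there. It measured 57.2, 69.4, 64.7, 63.6 and 67.9 FPKM in SJY libraries 1, 3, 4, 5 and 6. In ALI libraries 1 to 5 it measured 62.1, 51.1, 58.9, 69.5 and 71.5 FPKM, and in control libraries 4 to 8 it measured 70.5, 71.5, 78.8, 77.7 and 76.0 FPKM. Every SJY library lay below every control library, while ALI 5 lay above control 4 and below the other control libraries. The log2 difference (log2 of FPKM + 1 throughout) was -0.26 ± 0.10 (SE) in ALI against control, with a limma adjusted p of 0.0803, and also -0.26 without ALI 1 (adjusted p = 0.0932). It was -0.21 ± 0.10 in SJY against control (adjusted p = 0.117) and 0.05 ± 0.10 in SJY against ALI (adjusted p = 0.893, and 0.814 without ALI 1). None passed the threshold, although the ALI difference did without library ALI 5 (-0.31, adjusted p = 0.0450) the SJY difference from control did after scaling to the sum without mitochondrial genes (-0.36, adjusted p = 0.0273), and both did with array weights (adjusted p = 0.0233 and 0.0256). Median-of-ratios scaling gave smaller differences, -0.12 in ALI (adjusted p = 0.508) and -0.096 in SJY (adjusted p = 0.581) against control, as did the replicate block, -0.084 (adjusted p = 0.775) and -0.13 (adjusted p = 0.505).

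Keap1 encodes the adaptor that marks NRF2 for degradation. It measured 22.5, 27.6, 24.2, 27.9 and 24.7 FPKM in the SJY libraries, 16.9, 23.1, 24.6, 24.0 and 24.2 FPKM in the ALI libraries, and 27.6, 32.9, 26.7, 25.02 and 24.8 FPKM in the control libraries. All ALI libraries lay below all control libraries, by a margin as small as that between 24.6 FPKM in ALI 3 and 24.8 FPKM in control 8, and the SJY libraries overlapped both groups. ALI 1 was far below the other ALI libraries. The log2 difference was -0.27 ± 0.12 in ALI against control (limma adjusted p = 0.118) and -0.18 ± 0.10 without ALI 1 (adjusted p = 0.232). SJY differed from ALI by 0.17 ± 0.12 (adjusted p = 0.621; 0.075 without ALI 1, adjusted p = 0.700) and from control by -0.10 ± 0.12 (adjusted p = 0.540).

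The balance of the regulators, as the log2 ratio of Nfe2l2 to Keap1 within a library, averaged 1.31 ± 0.10 in SJY, 1.44 ± 0.28 in ALI and 1.42 ± 0.21 in control libraries (SD, n = 5 each). The 3 groups overlapped. The difference was 0.01 in ALI against control, with an exact permutation p of 0.952, two-sided. It was -0.12 in SJY against ALI (exact p = 0.413) and -0.11 in SJY against control (exact p = 0.333). Without ALI 1 the difference was -0.086 in ALI against control (adjusted p = 0.684) and -0.025 in SJY against ALI (adjusted p = 0.825). In all, 3 ratios were compared in 3 comparisons each, and after Benjamini-Hochberg adjustment over these 9 tests the smallest adjusted p of this ratio was 0.600.

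Hmox1 encodes haem oxygenase 1, the inducible enzyme that breaks haem into biliverdin, iron and carbon monoxide. It measured 78.2, 120, 122, 79.8 and 91.5 FPKM in the SJY libraries, 353, 75.6, 56.6, 58.3 and 50.4 FPKM in the ALI libraries, and 36.1, 28.1, 38.6, 41.0 and 36.0 FPKM in the control libraries. Every LPS-treated library, with or without SJY, exceeded every control library. ALI 1 was higher than any other library by a wide margin, and the other 4 ALI libraries all lay below all 5 SJY libraries. The means were 98.3 ± 21.4 FPKM in SJY, 119 ± 131 FPKM in ALI and 35.9 ± 4.85 FPKM in control libraries (SD, n = 5 each), and 60.2 ± 10.8 FPKM in ALI without ALI 1 (n = 4).

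Hmox1 rose in ALI against control by 1.23 ± 0.39 on the log2 scale, a 3.30-fold ratio of mean FPKM, with a limma adjusted p of 0.0417. Without ALI 1 the difference was 0.72 ± 0.16, a 1.68-fold ratio, with an adjusted p of 0.00587. The call with ALI 1 was close to the threshold: leaving out any one of SJY 3 to 6, ALI 2 or control 4 to 8 gave adjusted p from 0.0511 to 0.0942. It was also lost when the fit held only the ALI and control libraries (adjusted p = 0.0963). Hmox1 rose by 1.41 ± 0.39 in SJY against control, a 2.73-fold ratio (adjusted p = 0.0133), and by 1.41 ± 0.15 without ALI 1 (adjusted p = 5.87e-06).

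Whether Hmox1 differed between SJY and ALI turned on ALI 1. With all libraries the log2 difference was 0.18 ± 0.39 (limma adjusted p = 0.903), with 98.3 FPKM on average in SJY against 119 FPKM in ALI, so that the mean FPKM and the log2 difference pointed in opposite directions. Without ALI 1 it was 0.69 ± 0.16, a 1.63-fold ratio (adjusted p = 0.0465), and Hmox1 was then the 1 member called higher, beside 0.885% of all genes. It was 0.69 with an adjusted p of 0.0750 when only SJY and ALI libraries entered that fit. Groups of libraries not overlapping, higher in SJY, were found for 4.74% of genes without ALI 1 and 2.24% with it.

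Markers of inflammatory cells also differed between the groups, and some of their sums ranked libraries as Hmox1 did. The alveolar macrophage sum had the order of Hmox1 within SJY libraries, from 268 FPKM in SJY 1 to 323 FPKM in SJY 4. It also had that order within ALI libraries, from 289 FPKM in ALI 5 to 357 FPKM in ALI 1. The monocyte and recruited macrophage sum had it within SJY but not within ALI libraries, and neither sum had it within control libraries. Other values went apart. SJY 1 had the highest neutrophil marker sum of the SJY libraries (14871 FPKM) and the lowest Hmox1 among them (78.2 FPKM). ALI 1 had the highest Hmox1 (353 FPKM) and the lowest monocyte and recruited macrophage sum (489 FPKM) of the LPS-treated libraries. The 12 neutrophil markers, none of them at 0, summed to 8408 to 14871 FPKM in SJY libraries, 2243 to 23334 FPKM in ALI libraries and 154 to 251 FPKM in control libraries. ALI 1 held the highest sum, and without it the ALI libraries reached 7312 FPKM, below all SJY libraries. Of 11 neutrophil markers tested, 11 were called higher in ALI against control and 11 in SJY against control; 7 were called higher in SJY against ALI without ALI 1. The 11 monocyte and recruited macrophage markers in the table summed to 504 to 805 FPKM in SJY, 489 to 726 FPKM in ALI and 299 to 461 FPKM in control libraries, with 7 of 11 called higher in ALI against control. The 11 alveolar macrophage markers in the table summed to 268 to 323 FPKM in SJY, 289 to 357 FPKM in ALI and 143 to 318 FPKM in control libraries, with 4 of 9 tested called higher and 1 lower in ALI against control; Marco, Chi3l3 and Ear1 were at 0 in all control libraries. Red blood cell markers (4 in the table) summed to 1553 to 4853 FPKM in SJY, 765 to 2693 FPKM in ALI and 155 to 2348 FPKM in control libraries, with none of 3 tested called in ALI against control, with or without ALI 1. In SJY against control 2 of the 3 were called higher, the globin genes Hba-a2 at 2.35 (adjusted p = 0.00836) and Hbb at 2.18 (adjusted p = 0.0234). The part of these cells in the Hmox1 difference was not tested. In bulk tissue, fewer cells of a type and less RNA per cell cannot be told apart.

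Nqo1 encodes a quinone reductase that is widely used as a readout of NRF2. It measured 32.8, 29.5, 39.8, 41.0 and 36.1 FPKM in the SJY libraries, 36.7, 21.8, 24.0, 32.9 and 37.3 FPKM in the ALI libraries, and 44.1, 40.5, 35.5, 57.5 and 44.7 FPKM in the control libraries. ALI 2 and ALI 3 were the lowest, ALI 1 and ALI 5 reached into the control range, and the SJY libraries overlapped both other groups. Nqo1 fell in ALI against control by 0.54 on the log2 scale (SE 0.16, limma adjusted p = 0.0342). Without ALI 1 the difference was -0.61 ± 0.16 (adjusted p = 0.0182). The call was lost after median-of-ratios scaling (-0.40, adjusted p = 0.158), with only the ALI and control libraries in the fit (adjusted p = 0.0772), and without any one of ALI 2, ALI 3, control 5, control 7 or control 8 (adjusted p from 0.0536 to 0.0951). SJY differed from ALI by 0.25 ± 0.16 (adjusted p = 0.604; 0.32 without ALI 1, adjusted p = 0.298) and from control by -0.30 ± 0.16 (adjusted p = 0.181).

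Nqo1 and Hmox1, both targets of NRF2, differed in direction in ALI against control, and their ratio was compared within libraries. The log2 ratio of Nqo1 to Hmox1 ranged from -1.99 to -0.94 in SJY, from -3.23 to -0.42 in ALI and from -0.12 to 0.51 in control libraries. Neither SJY nor ALI libraries overlapped the control range. Hmox1 alone already separated them from control, so this separation and the permutation p-values of this ratio are not an independent result. The difference was -1.77 in ALI against control and -1.71 in SJY against control; both had an exact permutation p of 0.00794, the smallest that 5 against 5 libraries allow, and an adjusted p of 0.0238. Without ALI 1 the ALI difference was -1.34 (adjusted p = 0.0238). SJY differed from ALI by 0.07 (exact p = 0.929) and, without ALI 1, -0.37 (adjusted p = 0.500).

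**Figure D2:**
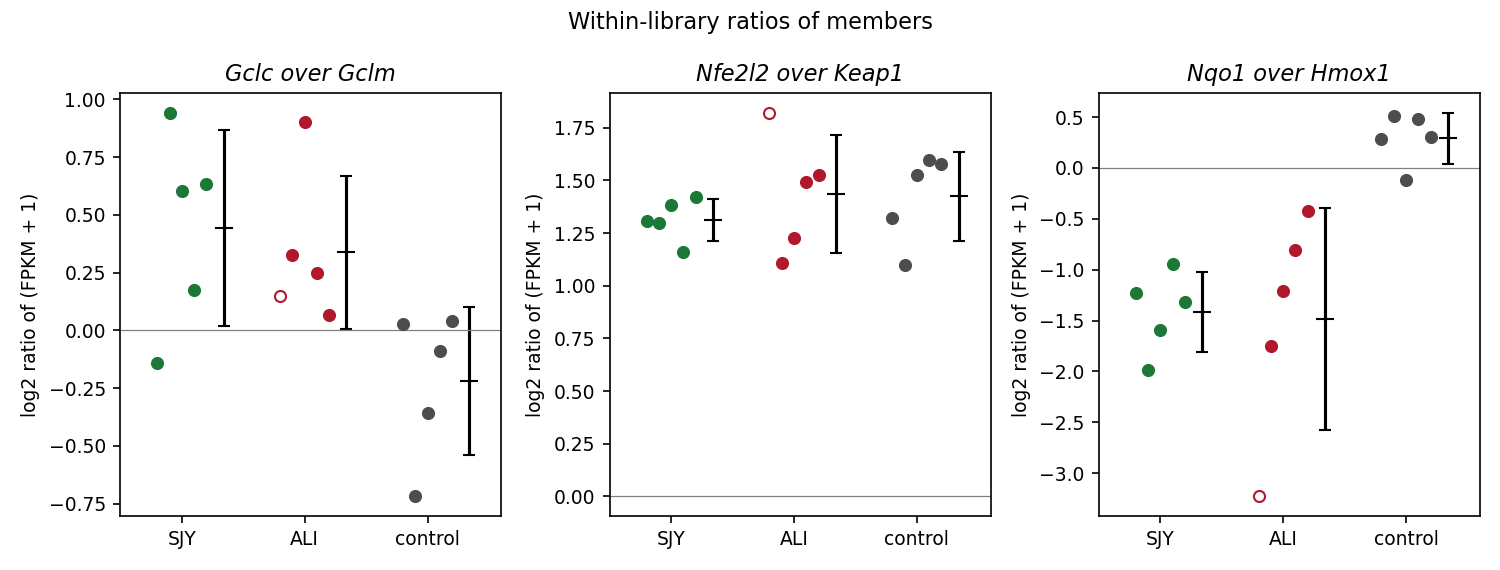
Log2 ratio of FPKM + 1 between 2 members in each library, by group, for Gclc over Gclm, Nfe2l2 over Keap1 and Nqo1 over Hmox1; open dot, ALI 1; bars, mean and SD of 5 libraries. Nqo1 over Hmox1 is at most -0.42 in SJY and ALI libraries and at least -0.12 in control libraries.

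Gclc and Gclm encode the catalytic and the regulatory subunit of glutamate-cysteine ligase, the rate-limiting enzyme of glutathione synthesis. Gclc measured 11.4, 16.7, 18.1, 15.4 and 17.3 FPKM in the SJY libraries, 16.5, 13.9, 19.8, 17.3 and 17.2 FPKM in the ALI libraries, and 16.1, 13.8, 17.1, 20.3 and 18.1 FPKM in the control libraries. The 3 groups overlapped almost fully. The log2 difference was -0.01 ± 0.14 in ALI against control (limma adjusted p = 0.960), -0.10 ± 0.14 in SJY against ALI (adjusted p = 0.821) and -0.11 ± 0.14 in SJY against control (adjusted p = 0.554). Without ALI 1 it was -0.0033 in ALI against control (adjusted p = 0.991) and -0.11 in SJY against ALI (adjusted p = 0.693). The sign in ALI against control turned to 0.13 after median-of-ratios scaling, still uncalled.

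Gclm measured 12.7, 8.21, 11.6, 13.5 and 10.8 FPKM in the SJY libraries, 14.8, 10.9, 10.1, 14.4 and 16.4 FPKM in the ALI libraries, and 15.8, 23.4, 22.2, 21.7 and 17.6 FPKM in the control libraries. Every SJY library lay below every control library, and ALI overlapped control through ALI 5 and control 4 alone. Gclm fell in SJY against control by 0.78 on the log2 scale (SE 0.16, limma adjusted p = 0.00254), to 11.4 ± 2.03 FPKM in SJY, against 20.1 ± 3.26 FPKM in control libraries (SD, n = 5 each). In ALI against control the difference was -0.57 ± 0.16 (adjusted p = 0.0256) and -0.61 ± 0.17 without ALI 1 (adjusted p = 0.0200). This ALI call was lost after median-of-ratios scaling (-0.43, adjusted p = 0.119), with only those 2 groups in the fit (adjusted p = 0.0506), and without any one of ALI 2, ALI 3, control 5, control 6 or control 7 (adjusted p from 0.0606 to 0.0665). SJY differed from ALI by -0.21 ± 0.16 (adjusted p = 0.660; -0.17 without ALI 1, adjusted p = 0.593).

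The ratio of catalytic to regulatory subunit transcripts was higher in ALI than in control lung. The log2 ratio of Gclc to Gclm averaged 0.44 ± 0.43 in SJY, 0.34 ± 0.33 in ALI and -0.22 ± 0.32 in control libraries (SD, n = 5 each). All ALI libraries lay above all control libraries, the nearest at 0.06 in ALI 5 and 0.04 in control 8, whereas SJY 1 at -0.14 fell within the control range. The difference was 0.56 in ALI against control (exact permutation p = 0.00794, adjusted p = 0.0238) and 0.66 in SJY against control (exact permutation p = 0.0397, adjusted p = 0.0893). In ALI against control Gclc differed by -0.01 and Gclm by -0.57, so the ratio there is not a result independent of Gclm. Without ALI 3 the ALI difference was 0.42 with an adjusted p of 0.0893, and without SJY 1 the SJY difference was 0.81 with an adjusted p of 0.0179. SJY differed from ALI by 0.10 (exact permutation p = 0.651). Without ALI 1 these were 0.61 in ALI against control (adjusted p = 0.0238) and 0.057 in SJY against ALI (adjusted p = 0.825).

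Osgin1 encodes oxidative stress induced growth inhibitor 1, a target of NRF2 in human cells linked to growth arrest and cell death. It measured 9.87, 10.1, 8.82, 8.92 and 7.03 FPKM in the SJY libraries, 4.65, 5.71, 6.21, 6.28 and 7.01 FPKM in the ALI libraries, and 15.3, 20.7, 12.7, 14.3 and 12.2 FPKM in the control libraries. The 3 groups did not overlap, with ALI lowest, SJY between and control highest. Among all 13457 genes tested, Osgin1 was the 1 gene with this arrangement of 3 separate groups in this order (0.00743%); the reverse order was met by 0 genes. With SJY farther from control than ALI, 3 separate groups were found for 46 genes that were highest in SJY and 5 that were lowest in SJY. The gap between SJY and ALI was narrow: SJY 6 had 7.03 FPKM and ALI 5 had 7.01 FPKM. In these libraries of unlike depth, SJY 6 had 209 fragments (95% Poisson interval 182 to 239, exact) and ALI 5 had 187 fragments (161 to 216). The gap in FPKM was smaller than counting error, so the separation of SJY from ALI rests on a near tie.

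Osgin1 fell in ALI against control by 1.19 on the log2 scale (SE 0.15, limma adjusted p = 0.000107), to 5.97 ± 0.872 FPKM in ALI, against 15.04 ± 3.42 FPKM in control libraries (SD, n = 5 each). It was -1.11 without ALI 1 (adjusted p = 0.000102). This call held in all 28 alternatives run, with differences from -1.39 to -1.03. It fell by 0.67 in SJY against control (SE 0.15, adjusted p = 0.00395), and this too held in all 28 alternatives. Between SJY and ALI the difference was 0.51 ± 0.15, with an unadjusted p of 0.00382 and an adjusted p of 0.234, so it was not called; without ALI 1 it was 0.44 ± 0.15 (adjusted p = 0.133).

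**Figure D3:**
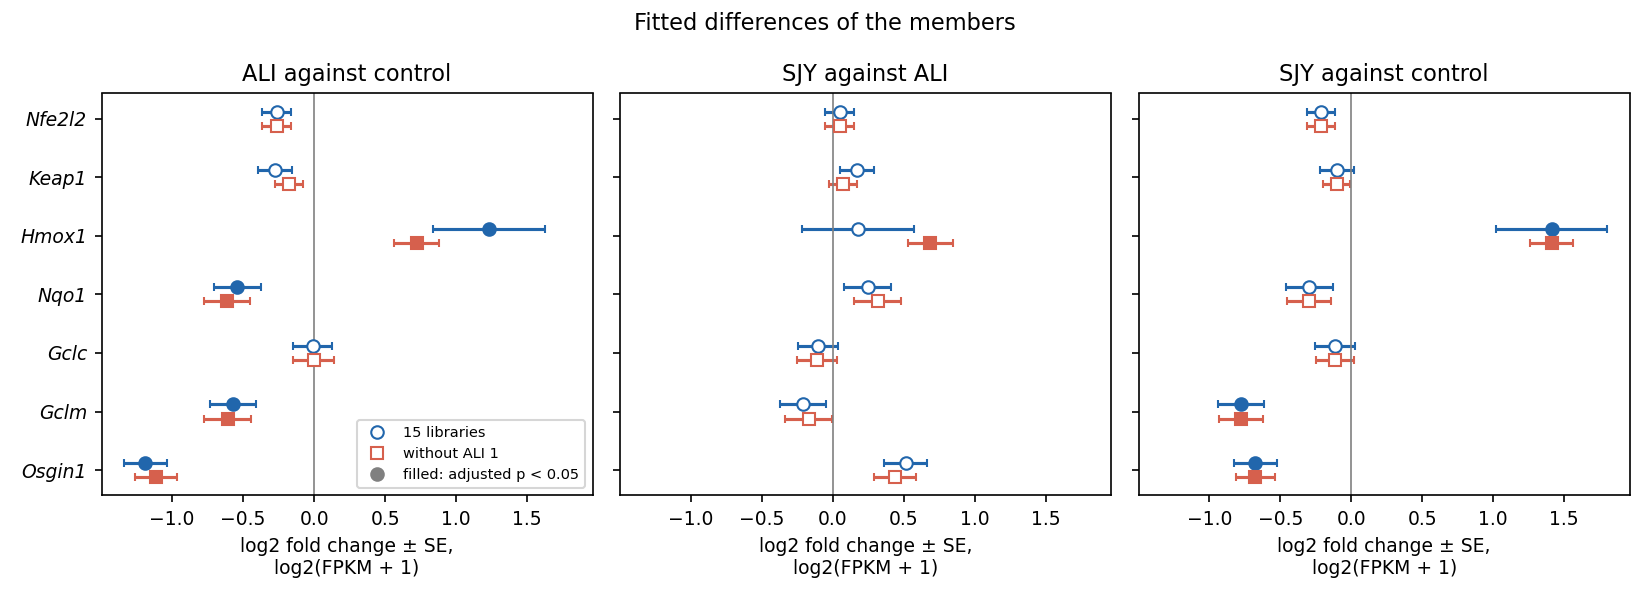
Fitted log2 difference ± SE of each member in the 3 comparisons, with 15 libraries (circles) and without ALI 1 (squares); filled symbols have an adjusted p under 0.05. Osgin1 is at -1.19 in ALI against control, and Hmox1 in SJY against ALI moves from 0.18 to 0.69 when ALI 1 is left out.

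By libraries alone, 1 member was higher in every ALI library than in every control library (Hmox1; 6.17% of all genes tested) and 2 were lower (Keap1 and Osgin1; 6.73%). Likewise, 1 was higher in SJY than in control (Hmox1; 11.8%) and 3 were lower (Nfe2l2, Gclm and Osgin1; 15.9%). Osgin1 was higher in every SJY than in every ALI library, as were 2.24% of all genes. Some epithelial markers also differed between the groups, and the alveolar type I sum partly followed the members that fell library by library. ALI 1 had the lowest alveolar type I marker sum (715 FPKM) and the lowest Osgin1 (4.65 FPKM). Its Nqo1 (36.7 FPKM) and Gclm (14.8 FPKM) were not the lowest of the ALI libraries. Without ALI 1, this sum and Gclm ranked the ALI libraries alike. The lowest was ALI 3 (1445 and 10.1 FPKM), then came ALI 2, ALI 4 and ALI 5 (2488 and 16.4 FPKM). Nqo1 and Osgin1 had that order except that ALI 2 was below ALI 3. Within SJY and within control libraries, Nqo1, Gclm and Osgin1 each had another order than this sum. The 10 alveolar type I markers, none at 0, summed to 1750 to 2766 FPKM in SJY, 715 to 2488 FPKM in ALI and 3355 to 4816 FPKM in control libraries, and 10 of 10 were called lower in ALI against control. Without ALI 1, 9 of 10 were. The 11 airway club, goblet and ciliated markers in the table summed to 8245 to 13967 FPKM in SJY, 5655 to 9123 FPKM in ALI and 11405 to 17649 FPKM in control libraries, with 3 of 10 tested called lower and 1 higher in ALI against control. Of 10 alveolar type II markers 3 were called lower in that comparison, as were 2 of 8 endothelial markers, while 3 of 7 fibroblast markers were called higher. The part of these cells in the lower levels of Nqo1, Gclm and Osgin1 was not tested.

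Among genes for partners and repressors of NRF2, those called against control with all libraries were lower, with 1 exception. Calls among all genes tested also leaned lower, with 9.56% lower and 8.02% higher in ALI against control. In SJY against control these shares were 18.1% lower and 14.6% higher. Of 12 partners and repressors tested, 0 were called higher and 2 lower in ALI against control, and 1 higher and 5 lower in SJY against control (2 and 6 without ALI 1); the medians of the list were -0.11 and -0.22, beside -0.12 and -0.11 for all genes tested. Mafk, a small MAF partner of NRF2, averaged 30.3 ± 1.49 FPKM in SJY, 30.1 ± 3.77 FPKM in ALI and 47.2 ± 4.47 FPKM in control libraries (SD, n = 5 each). It fell in ALI against control by 0.64 on the log2 scale (limma adjusted p = 0.000866) and in SJY against control by 0.62 (adjusted p = 0.000601). Jun, an AP-1 subunit that also dimerises with NRF2, fell by 0.97 (adjusted p = 0.00365) and by 0.75 (adjusted p = 0.00883). Without ALI 1 the differences in ALI against control were -0.68 for Mafk (adjusted p = 0.000305) and -0.93 for Jun (adjusted p = 0.00572). Bach1, the haem-sensitive repressor that occupies antioxidant response elements at Hmox1, averaged 3.04 ± 0.807 FPKM in SJY, 4.41 ± 1.30 FPKM in ALI and 6.23 ± 1.55 FPKM in control libraries. It fell in SJY against control by 0.84 (adjusted p = 0.00774) and differed in ALI against control by -0.42 (adjusted p = 0.164; -0.39 without ALI 1, adjusted p = 0.244). Nfe2l1, a related transcription factor, and Gsk3b, a kinase that marks NRF2 for a second route of degradation, also fell in SJY against control, by 1.01 (adjusted p = 0.00942) and by 0.47 (adjusted p = 0.0416). Rbx1, a subunit of the KEAP1-linked ubiquitin ligase, rose by 0.42 (adjusted p = 0.0114). In SJY against ALI 0 of 12 were called by limma with or without ALI 1, and 3 had an unadjusted p under 0.05; Sqstm1, Jun and Atf4, the most abundant, differed by 0.17, 0.22 and 0.20, and without ALI 1 by 0.079, 0.18 and 0.41.

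The wider set of NRF2 targets went both ways. Of 33 genes counted, 32 were in the table and 28 were tested; 4 were called higher and 4 lower in ALI against control, with a median of -0.044 beside -0.12 for all genes, and the counts were also 4 and 4 without ALI 1, with a median of 0.0047. Between SJY and control 8 were called higher and 4 lower, with a median of 0.15 beside -0.11. Of all genes tested, 8.02% were called higher and 9.56% lower in ALI against control, and 14.6% and 18.1% in SJY against control. Taldo1, transaldolase of the pentose phosphate pathway, rose in ALI against control by 0.54 (limma adjusted p = 0.00295). Prdx1, a peroxiredoxin, rose by 0.65 (adjusted p = 0.0147). Ugt1a6 and Ugdh, which serve glucuronidation, rose by 0.81 (adjusted p = 0.00148) and 0.61 (adjusted p = 0.0359). Without ALI 1 these 4 were still called, Taldo1 at 0.51, Prdx1 at 0.52, Ugt1a6 at 0.78 and Ugdh at 0.39.

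The 4 targets that fell in ALI against control were 3 glutathione transferases of the alpha class and the epoxide hydrolase Ephx1, enzymes of detoxification. Gsta4 fell by 1.51 (adjusted p = 0.00532), Gsta1 by 1.22 (adjusted p = 0.000107), Ephx1 by 1.22 (adjusted p = 0.00226) and Gsta3 by 1.20 (adjusted p = 0.00925). Without ALI 1 all 4 were still called, Gsta4 at -1.19, Gsta1 at -1.20, Ephx1 at -1.04 and Gsta3 at -1.10. Gsta1 averaged 77.2 ± 11.4 FPKM in SJY, 56.7 ± 13.2 FPKM in ALI and 132 ± 19.7 FPKM in control libraries (SD, n = 5 each). These 4 were also the 4 that fell in SJY against control, by 0.77 to 1.13. Those called higher in SJY against control were Akr1b8, Txn1, Taldo1, Prdx1, Ugt1a6, Mgst1, Tkt and Gsr, led by Akr1b8, an aldo-keto reductase, at 1.23 (adjusted p = 0.0146), and thioredoxin, Txn1, at 1.10 (adjusted p = 0.00394). Among these, Ugt1a6 and the glutathione transferases belong to families of similar genes whose reads may be shared, and their single-gene values are uncertain to that extent.

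**Figure D4:**
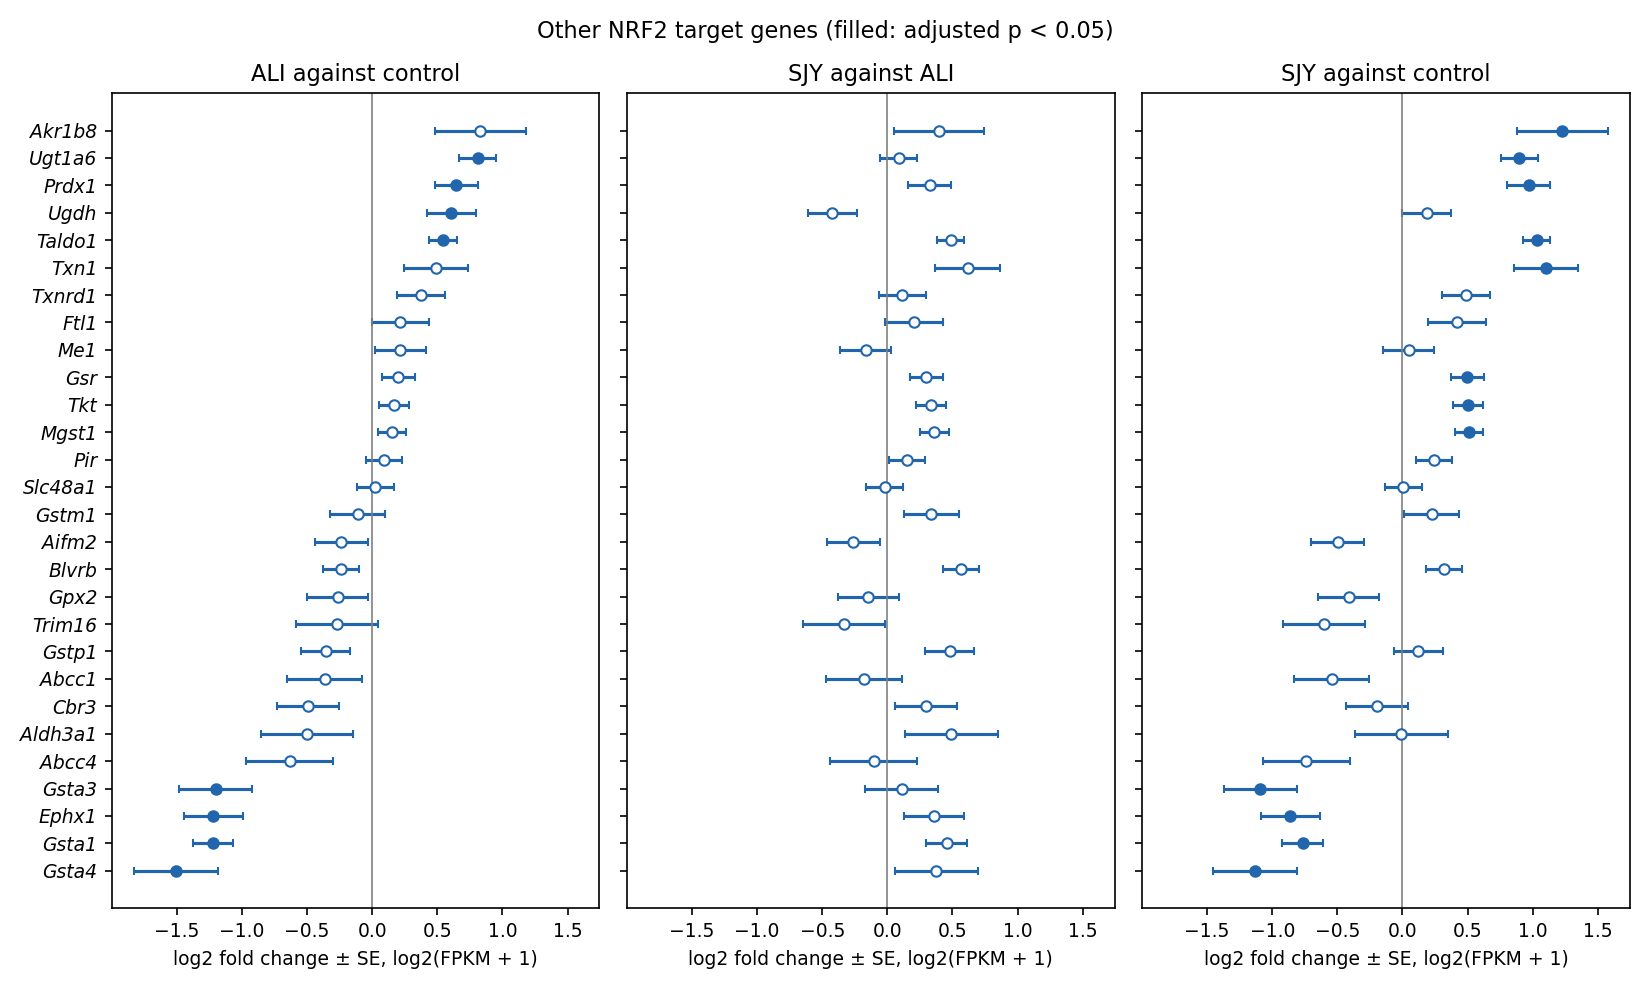
Fitted log2 difference ± SE of the 28 tested NRF2 targets outside the members in the 3 comparisons, ordered by ALI against control; filled symbols have an adjusted p under 0.05. In ALI against control 4 are filled on the right and 4 on the left, and in SJY against ALI 0 are filled.

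Of the 28, 0 were called by limma in SJY against ALI and 9 had an unadjusted p under 0.05, with a median of 0.30 beside 0.03 for all genes tested. Txn1, Prdx1 and Taldo1, the most abundant, differed by 0.62, 0.32 and 0.49, and without ALI 1 Txn1 and Prdx1 differed by 0.83 and 0.45. Without ALI 1, 1 was called, Taldo1, at 0.52 ± 0.11 (limma adjusted p = 0.0295), and the median was 0.15 beside -0.08 for all genes. Fth1, ferritin heavy chain, is listed at 0 in all libraries, although every cell uses it. Among the genes of haem and iron handling below, Slc40a1 was also at 0 in all libraries. Gpx4, of the glutathione genes below, averaged at most 0.0521 FPKM in a group and was not tested. Ftl1, which was tested, averaged only 2.33 to 3.37 FPKM in the groups.

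Of 10 genes of haem and iron handling tested, 3 were called higher and 1 lower in ALI against control, with a median of 0.03. The shares of all genes tested were 8.02% higher and 9.56% lower there, and 14.6% and 18.1% in SJY against control. Haptoglobin, Hp, averaged 238 ± 67.0 FPKM in SJY, 181 ± 102 FPKM in ALI and 20.6 ± 4.94 FPKM in control libraries (SD, n = 5 each), and rose in ALI against control by 2.92 (limma adjusted p = 3.00e-05). Cd163, the macrophage receptor for haptoglobin-bound haemoglobin, rose by 1.54 (adjusted p = 0.00221), and haemopexin, Hpx, by 1.01 (adjusted p = 0.0388). Alas1, the first enzyme of haem synthesis in non-erythroid cells, fell by 1.10 (adjusted p = 0.00384). Without ALI 1, 2 of the 10 were called higher and 1 lower: Hp at 2.65, Cd163 at 1.44 and Alas1 at -0.94 kept their calls, and Hpx at 0.80 did not (adjusted p = 0.0767). In SJY against control Hpx stood at 0.30 (adjusted p = 0.495). In SJY against control Hp and Blvra, a biliverdin reductase, rose by 3.46 (adjusted p = 2.68e-06) and 0.53 (adjusted p = 0.00653), and Alas1 fell by 0.82 (adjusted p = 0.0112), with a list median of 0.31. Hmox2, the constitutive haem oxygenase, differed by -0.09 in ALI against control (adjusted p = 0.488; -0.035 without ALI 1, adjusted p = 0.800). By limma 0 of 10 were called in SJY against ALI and 4 had an unadjusted p under 0.05, with Hp, Alas1 and Blvra at 0.54, 0.28 and 0.51, and without ALI 1 at 0.81, 0.12 and 0.47; the list's median was 0.12.

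Beside Gclc and Gclm, 4 of 9 genes of glutathione synthesis and use were called higher and 0 lower in ALI against control (4 and 1 without ALI 1), with a median of 0.28. With all libraries, 8.02% of all genes tested were called higher and 9.56% lower there, and 14.6% and 18.1% in SJY against control. Ggt1, the surface enzyme that cleaves glutathione, averaged 10.5 ± 2.58 FPKM in SJY, 12.7 ± 7.25 FPKM in ALI and 2.83 ± 0.800 FPKM in control libraries (SD, n = 5 each) and rose by 1.69 (limma adjusted p = 0.00154). Glrx, glutaredoxin, rose by 1.42 (adjusted p = 0.00643), Gss, the second enzyme of glutathione synthesis, by 0.52 (adjusted p = 0.0167), and Gpx1, a glutathione peroxidase, by 0.29 (adjusted p = 0.0451). Without ALI 1 these 4 were still called, Ggt1 at 1.46, Glrx at 1.04, Gss at 0.43 and Gpx1 at 0.31, and Gpx3 was called lower at -0.55 (adjusted p = 0.0452). In SJY against control 4 of 9 rose and 0 fell (Glrx, Ggt1, Gpx1 and Gsr), with a median of 0.33; Glrx rose by 1.90 (adjusted p = 0.000500). In SJY against ALI 0 of 9 were called by limma with all libraries and 2 had an unadjusted p under 0.05, with Gpx3, Gpx1 and Slc3a2, the most abundant, at 0.46, 0.44 and 0.22. Without ALI 1, Gpx3 and Slc3a2 were at 0.013 and 0.17, and 2 were called higher, Glrx at 0.86 ± 0.16 (adjusted p = 0.0209) and Gpx1 at 0.42 ± 0.10 (adjusted p = 0.0438). The part of the inflammatory cells in these differences was not tested.

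For each member called in a comparison, the 3 genes with the nearest profile were found among 9891 named genes with a mean of at least 5 FPKM, by the root mean square difference over the 15 libraries in log2(FPKM + 1) relative to control. The 3 nearest to Gclm were Niban2 (0.14), Zbtb7a (0.18) and Foxo4 (0.20). Nearest to Nqo1 were Bcl2l2 (0.23), Pebp1 (0.23) and Rassf3 (0.23). Nearest to Osgin1 were Rassf7 (0.24), Hsf4 (0.24) and Hopx (0.25), of which Hopx is one of the alveolar type I markers. Hmox1 had no neighbour as near: Pak1ip1 stood at 0.35, and 2 entries named LOC108351137 at 0.37 and 0.38. These distances describe likeness over libraries that share a group structure. They are not scaled to a gene's spread, so a gene with large differences, such as Hmox1 with its high value in ALI 1, tends to lie farther from others.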

How the data were processed

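RNA of rat lung was extracted with TRIzol and sequenced from NEBNext Ultra libraries, per the labels' protocols. The authors deposited 1 table of FPKM values for 15 libraries; cutadapt, HISAT2, StringTie and the build Rnor_6.0 are named in the submitters' processing notes, without versions. Differences were fitted with limma 3.58.1 in R 4.3.3 on log2(FPKM + 1), with all 3 groups in one fit, a mean trend and robust variances, for genes with at least 1 FPKM in at least 5 libraries, and p-values were adjusted over all genes tested (Benjamini-Hochberg). The fit was checked on simulated data. Ratios of members were compared by exact two-sided permutation over libraries (scipy 1.17.1). Whole fragments were recovered from the steps of the FPKM values, a step chosen after seeing the data, and tested with limma-voom as an alternative. Within groups, 30 pairs of libraries were compared and none differed by as little as counting noise (chi-square per gene 11.7 or more). The authors' counting is not stated to use strand.

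The members and lists were chosen with earlier results of these data known. One gene of the list of other NRF2 targets is not reported here and was left out of that list's counts and medians. Genes named outside the members were, per list and comparison, up to 4 called genes per direction with the largest difference, or the 3 most abundant where none was called; genes of counts of 5 or fewer were named in full. Cell type marker lists are given by counts and summed FPKM. Alternatives comprised median-of-ratios scaling, scaling without mitochondrial genes, other variance settings, array weights, a pseudocount of 0.1, other filters, fits of only the groups compared, a replicate block and leaving out each library. Coordinates are those of RefSeq GRCr8 promoters and were not compared with the table's build.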

Additional observations from a re-analysis of the deposited data

Results flagged for a closer look

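In 2 of 30 groups of 5 values examined (7 members and 3 ratios, in 3 groups each), 1 library lay far from the other 4 relative to the group's range; chance gives about 1 in 20 such groups. Both were library ALI 1: Hmox1 at 353 FPKM, where the other ALI libraries had 50.4 to 75.6 FPKM, and Keap1 at 16.9 FPKM, where the others had 23.1 to 24.6 FPKM. ALI 1 also had the highest mitochondrial share (37.7%) and the highest neutrophil marker sum (23334 FPKM) of the 15 libraries. The part of these in the Hmox1 and Keap1 values was not tested.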

How the results depend on the processing

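Each result was recomputed under 28 alternatives, of which both limma-voom fits on recovered fragments were chosen after seeing the data. The 4 members called in ALI against control became 2 after median-of-ratios scaling, 1 with only the 2 groups compared, 1 with the replicate block, and 1 to 5 when a library was left out. Genes called in that comparison were 2366, against 3959 with array weights, 1332 with only the 2 groups compared, 313 with the replicate block and 1538 to 2890 without a library (lowest without control 7, 1538, and control 5, 1545); limma-voom called 2209. In SJY against ALI the 0 members called became 1 (Hmox1) without ALI 1, also with median-of-ratios scaling or limma-voom, and 0 to 1 without any library. The 1 gene called there was 0 after median-of-ratios scaling, without trend and robust variances, with a pseudocount of 0.1, without the filter and with only the 2 groups compared. It was 478 with array weights, 0 to 181 without a library (181 without ALI 1, 5 without control 5), and, without ALI 1, 185 with median-of-ratios scaling, 127 with only the 2 groups compared and 171 by limma-voom. Other NRF2 targets called there, 0 in the fit reported, were 6 with array weights, 0 to 1 without a library, and, without ALI 1, 2 with median-of-ratios scaling and 1 by limma-voom; in ALI against control the 8 became 2 with the replicate block. In SJY against control 4390 genes became 7654 with array weights and 1142 with the replicate block, and 12 other targets became 19 and 5.

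The library numbers mark nothing stated in the labels, and correlations of same-numbered deviations ran from -0.39 to 0.30, so the replicate block shares only a number. With it, Hmox1 in SJY against control was 1.24 (adjusted p = 0.174); Hmox1, Nqo1 and Gclm in ALI against control were 1.09, -0.20 and -0.40, all uncalled; and the log2 ratio differences were 0.013 for Nfe2l2 over Keap1 in SJY against control, -0.0095 for Nqo1 over Hmox1 in SJY against ALI and -1.31 in SJY against control. Hmox1 in ALI against control also lost its call after scaling without mitochondrial genes (adjusted p = 0.0548) and without the filter (adjusted p = 0.0609). Leaving out a library gave log2 ratio differences of 0.42 to 0.63 (ALI against control), -0.020 to 0.25 (SJY against ALI) and 0.54 to 0.81 (SJY against control) for Gclc over Gclm, -0.086 to 0.092 for Nfe2l2 over Keap1 in ALI against control, and -0.37 to 0.33 for Nqo1 over Hmox1 in SJY against ALI. Signs also turned where differences were near 0, none called: Gclc in ALI against control at 0.13 (median-of-ratios scaling, 0.026 with it and without ALI 1), 0.26 (replicate block) and -0.081 to 0.054 (without a library); Gclc in SJY against ALI at 0.0045 (array weights) and -0.17 to 0.00082 (without a library) and in SJY against control at 0.055 (replicate block); Nfe2l2 in SJY against ALI at -0.054 (scaling without mitochondrial genes), -0.048 (replicate block) and -0.019 to 0.10 (without a library); Keap1 in SJY against control at 0.012 (median-of-ratios scaling) and 0.015 (with it and without ALI 1). Hmox1 in SJY against ALI was -0.0085 to 0.69 without a library and called only without ALI 1. The causes were not tested. Fragments per member and library were 138 or more. For Osgin1 and Keap1 in ALI without ALI 1 the spread between libraries (coefficients of variation of 8.51% and 2.56%) was near or below the counting error.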
